A study of Mus musculus with 6 samples.

Results

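Autophagy and mitophagy were followed through 41 genes that encode the core machinery and its receptors. The genes were chosen from a list of names, drawn up with earlier results of these data known, and all 41 were found among the 20588 genes of the deposited table. The libraries hold polyadenylated RNA from satellite cells, the stem cells of skeletal muscle, obtained by cell sorting from the hind limbs of C57BL/6NJ mice at 2 months of age. The study set cells labelled Pnpla2PKO (PKO 1, PKO 2 and PKO 3) beside wild-type cells (WT 1, WT 2 and WT 3), to learn what loss of Pnpla2 does to the transcriptome. Pnpla2 encodes adipose triglyceride lipase, which starts the breakdown of stored triglyceride. Cells of both groups had been grown for 7 days after sorting and then held for 16 h in DMEM with 2% horse serum, a low-serum medium in which myoblasts differentiate. The Cre driver or other means behind the knockout is not given in the sources used here. Nor do the labels say whether replicates are different mice, different cultures or repeat libraries. All p-values here therefore reflect variation among libraries, part of which may be technical.

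In autophagy a cell wraps part of its contents in a double membrane, the autophagosome, and delivers it to the lysosome. The ULK1 kinase complex starts the process, a class III PI3-kinase complex marks the membrane with PI3P, and a pair of ubiquitin-like conjugation systems attach proteins of the ATG8 family (LC3 and GABARAP) to the growing membrane. Receptors bind both cargo and ATG8 proteins, and in mitophagy the cargo is a mitochondrion, marked by receptors such as BNIP3 or by the kinase PINK1. In muscle stem cells autophagy is known for maintaining quiescence and for clearing mitochondria as myoblasts differentiate.

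Among genes with a higher mean in PKO, the largest differences lay in the ATG8 family. Gabarapl1 was at 32.7 ± 2.89 CPM (read counts scaled to library size; SD, n = 3) in WT and 58.1 ± 10.4 in PKO, and Map1lc3b at 107 ± 15.2 and 166 ± 20.9. Both rose by DESeq2 over all genes, and neither passed edgeR, in which no gene of the whole table did. In the opposite direction stood Bnip3, at 105 ± 35.5 CPM in WT and 67.2 ± 4.46 in PKO, with WT 1 at the PKO level. Most of the machinery differed little: 29 of the 41 genes had a log2 fold change (PKO over WT) between -0.20 and 0.20. Of all 14025 genes tested, 5982 lay in the same range.

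The labels were checked on Pnpla2 first. Its level was 21.1, 38.5 and 33.7 CPM across WT 1 to WT 3 and 8.47, 16.0 and 15.5 CPM across PKO 1 to PKO 3. All PKO libraries were below all WT libraries, with a PKO mean at 42.8% of the WT mean (exact two-sided permutation test, p = 0.1, the smallest that 3 against 3 libraries can give). Total counts ran from 15580176 to 18839151 per library, and each of the 41 genes had at least 81 counts in each library. The libraries did not divide by genotype alone: over all genes tested, the median absolute log2 difference between WT 1 and PKO 1 was 0.18, against 0.33 between WT 1 and WT 2, and 0.12 between WT 2 and WT 3. Over the 41 genes the same differences were 0.11, 0.16 and 0.07. Summed markers of cycling cells were at 163, 783 and 817 CPM across WT 1 to WT 3 and 220, 193 and 241 CPM across PKO 1 to PKO 3, so WT 1 stood with the PKO libraries. Summed stromal markers (12 of 12 in the table, with Dpt at 0 in all WT libraries) were at 407, 315 and 361 CPM for WT and 530, 1867 and 1322 CPM in PKO, high in PKO 2 and PKO 3. Summed myogenic markers (12 of 12 in the table) ran from 26454 to 27476 CPM in WT and from 15859 to 23611 CPM in PKO. Pax7, which defines satellite cells, was at 44.5, 114 and 107 CPM across WT 1 to WT 3 and 56.3, 43.6 and 41.2 CPM across PKO 1 to PKO 3. It was thus high in WT 2 and WT 3, with WT 1 in the PKO range. The embryonic myosin gene Myh3 led the myogenic list with a mean of 7098 CPM. Leukocyte markers summed to at most 19.1 CPM and endothelial markers to at most 12.8 CPM. Pericyte and smooth muscle markers summed to 81.7 to 194 CPM in WT and 228 to 245 CPM in PKO. In such bulk RNA, fewer cells of a type and less RNA per cell cannot be told apart. What these differences contribute to the results was not tested. Values without WT 1 and PKO 1, or without PKO 2 and PKO 3, stand beside the genes with the largest differences. Over all genes tested, WT 1 and PKO 1 were the most alike of WT and PKO libraries, so leaving both out tends to widen differences.

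All 41 genes passed the filter on low counts. By edgeR's quasi-likelihood test, 0 of the 41 had an adjusted p under 0.05, as did 0% of the 14025 genes tested. At an unadjusted p under 0.05, 6 of the 41 were higher in PKO (Atg7, Gabarap, Gabarapl1, Map1lc3b, Uvrag and Wdr45), against 10.2% of all genes, and 1 was lower (Bnip3), against 6.35%. DESeq2 called 2 of the 41 higher (4.73% of all genes) and 0 lower (0.933%). The share that DESeq2 called higher was thus near that of the whole table. All PKO libraries lay above all WT libraries in 9 of the 41 genes (11.8% of all genes tested) and below them in 2 (9.7%). A log2 fold change above 0 was found in 26 of the 41, against 48.3% of all genes. The median log2 fold change of the 41 was 0.07, beside -0.02 over all genes tested, and the median absolute value was 0.15, beside 0.25. With WT 1 and PKO 1 left out, edgeR called 5 of the 41 higher (Gabarap, Gabarapl1, Map1lc3b, Pink1 and Uvrag; 10.2% of all genes) and 1 lower (Bnip3; 5.63%). Without WT 1 alone there were 4 higher (3.55%) and 1 lower (3.32%), and without PKO 1 alone 2 higher (4.54%) and 0 lower (0.538%).

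**Figure D1:**
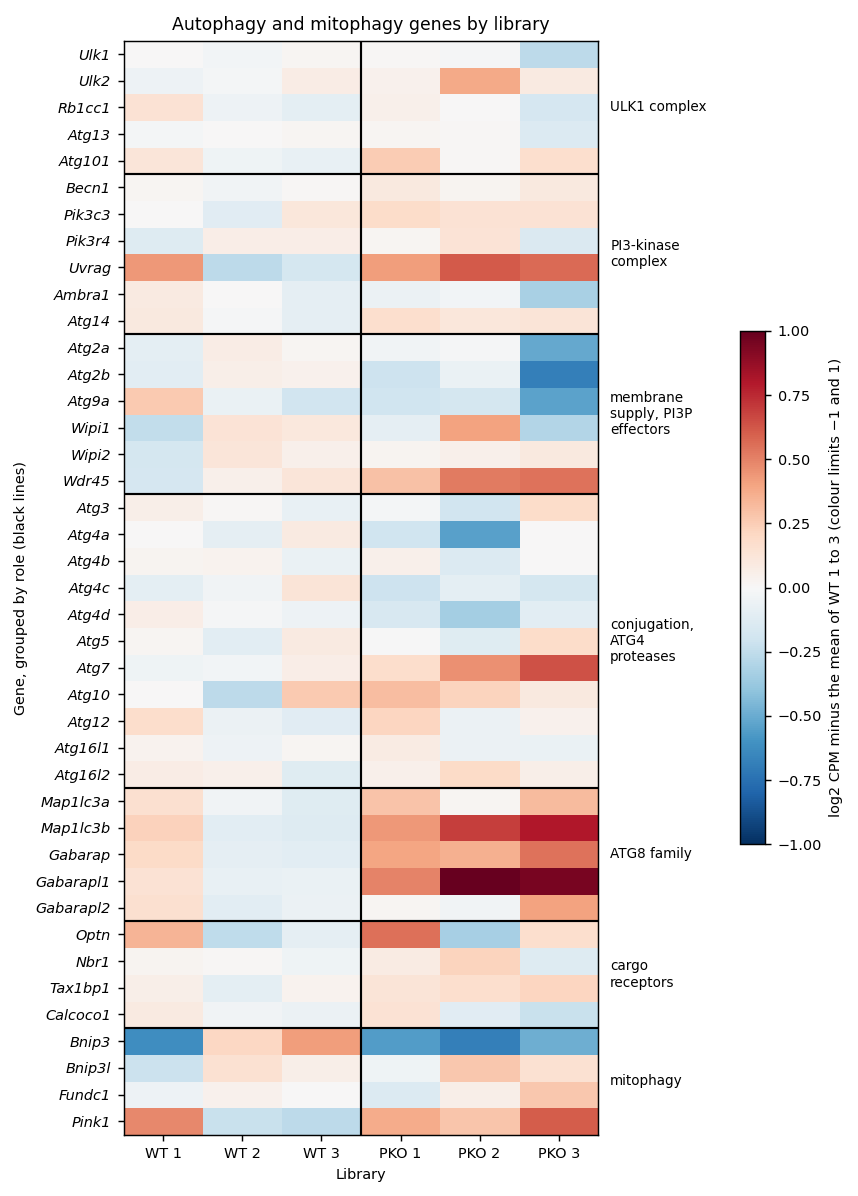
Level of each of the 41 genes (rows, grouped by role) in each library (columns), as log2 CPM minus the mean of WT 1 to WT 3, red above and blue below, with the colour scale limited at -1 and 1. The strongest red lies in Gabarapl1 and Map1lc3b of PKO 2 and PKO 3, and Bnip3 is blue in WT 1 and in all PKO libraries.

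Per length, in the deposited FPKM, the 41 mRNAs covered a wide range. Gabarap was first in both groups, at 116 ± 13.7 FPKM in WT and 162 ± 13.3 in PKO (SD, n = 3). Calcoco1, which encodes a receptor for turnover of the endoplasmic reticulum, was second in both groups at 77.3 ± 4.09 and 77.2 ± 9.02 FPKM. Atg16l2, a relative of the conjugation scaffold Atg16l1, was last at 3.26 ± 0.24 and 3.64 ± 0.21 FPKM. By mean FPKM, Gabarapl1 was 16th in WT and 8th in PKO, Map1lc3b 10th and 6th, Uvrag 31st and 23rd, and Wdr45 24th and 17th. Bnip3 was 3rd in WT and 7th in PKO.

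The ATG8 proteins are the ubiquitin-like tags of the autophagosome. Their 5 genes had a median log2 fold change of 0.43, each above 0, against 48.3% of all genes. The 300 bases around the annotated start (RefSeq, GRCm38.p6; 250 bases upstream and 50 downstream) are shown for Gabarapl1, Map1lc3b and Gabarap, the ATG8 genes with the largest differences, and for Bnip3, the gene with the largest difference the other way. Capitals mark matches to motifs described further on. The windows are chr6:129532942-129533241 (plus strand), chr8:121590188-121590487 (plus), chr11:69991120-69991419 (plus) and chr7:138909457-138909756 (minus).
Gabarapl1: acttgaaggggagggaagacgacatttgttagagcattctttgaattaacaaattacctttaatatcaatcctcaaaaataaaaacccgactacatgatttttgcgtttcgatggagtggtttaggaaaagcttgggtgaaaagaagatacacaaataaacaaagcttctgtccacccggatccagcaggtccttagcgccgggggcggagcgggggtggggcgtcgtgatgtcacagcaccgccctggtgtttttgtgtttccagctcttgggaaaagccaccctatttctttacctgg
Map1lc3b: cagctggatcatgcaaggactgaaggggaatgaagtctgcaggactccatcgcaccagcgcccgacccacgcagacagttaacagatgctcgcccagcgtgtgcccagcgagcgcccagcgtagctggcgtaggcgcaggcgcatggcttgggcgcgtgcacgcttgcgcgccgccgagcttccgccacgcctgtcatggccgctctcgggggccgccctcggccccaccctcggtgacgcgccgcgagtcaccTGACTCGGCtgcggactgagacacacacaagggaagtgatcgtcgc
Gabarap: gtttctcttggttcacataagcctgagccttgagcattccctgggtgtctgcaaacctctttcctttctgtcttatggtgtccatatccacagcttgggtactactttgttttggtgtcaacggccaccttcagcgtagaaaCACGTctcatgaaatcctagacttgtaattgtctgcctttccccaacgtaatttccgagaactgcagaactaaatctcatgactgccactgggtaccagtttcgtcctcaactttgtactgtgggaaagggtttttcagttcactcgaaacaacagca
Bnip3: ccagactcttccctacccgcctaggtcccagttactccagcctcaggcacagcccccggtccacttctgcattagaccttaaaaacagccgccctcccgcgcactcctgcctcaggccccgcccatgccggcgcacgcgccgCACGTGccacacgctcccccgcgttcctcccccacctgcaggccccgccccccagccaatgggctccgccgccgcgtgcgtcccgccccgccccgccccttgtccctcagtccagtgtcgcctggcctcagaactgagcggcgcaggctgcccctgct
The RefSeq start of Gabarap used here lies 227 bases downstream of the start of the gene in the deposited table. Most of its window is therefore within that gene. The starts of the other genes shown lie within 77 bases of the deposited ones.

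Gabarapl1 (ENSMUSG00000030161; GRCm38 chr6:129533200-129542331, plus strand) encodes a GABARAP-like protein. Its level was 36.0, 31.0 and 31.1 CPM across WT 1 to WT 3 and 46.1, 65.3 and 62.8 CPM across PKO 1 to PKO 3. The groups did not overlap, and PKO 1 lay between WT and the other PKO libraries. The log2 fold change was 0.83 ± 0.16 (SE; 1.78-fold), with an adjusted p of 0.179 by edgeR and 0.00319 by DESeq2; over 17 alternative settings the adjusted p ran from 0.00319 to 0.924. The authors' deposited table gives 0.78 and an adjusted p of 0.00371. The highest adjusted p over the alternatives, 0.924, was the same for Map1lc3b, Gabarap and Pnpla2 itself. It recurs for further genes below and is not particular to any of them. Between WT 1 and PKO 1 alone the log2 difference was 0.35. It was 1.04 by edgeR without that pair (adjusted p = 0.00652) and 0.50 without PKO 2 and PKO 3.

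Map1lc3b (ENSMUSG00000031812; chr8:121590361-121598760, plus strand) encodes LC3B, the protein most used as a mark of autophagosomes. It stood at 124, 98.5 and 97.1 CPM across WT 1 to WT 3 and at 143, 171 and 184 CPM across PKO 1 to PKO 3. All PKO libraries were higher than all WT libraries, with WT 1 the highest of WT and PKO 1 the lowest of PKO. This gave a log2 fold change of 0.64 ± 0.15 (SE), with an adjusted p of 0.185 by edgeR and 0.0184 by DESeq2 (0.0102 to 0.924 over the 17 alternatives). It was 0.86 by edgeR without WT 1 and PKO 1 (adjusted p = 0.0102) and 0.43 without PKO 2 and PKO 3. The libraries with the most Gabarapl1 and Map1lc3b, PKO 2 and PKO 3, were also those with the most stromal marker RNA (1867 and 1322 CPM summed, against 315 to 530 CPM in the other libraries), and the part of this in the result was not tested.

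Gabarap (ENSMUSG00000018567; chr11:69991143-69994951, plus strand), the family's most abundant mRNA per length, was at 182, 150 and 148 CPM across WT 1 to WT 3 and at 209, 204 and 232 CPM across PKO 1 to PKO 3. These groups too were apart, by a smaller margin. The log2 fold change of 0.43 ± 0.13 (SE) passed neither edgeR (adjusted p = 0.208) nor DESeq2 (adjusted p = 0.101), and passed edgeR only without WT 1 and PKO 1 (0.55, adjusted p = 0.0455; 0.0455 to 0.924 over the 17 alternatives). Without PKO 2 and PKO 3 it was 0.39. The other two ATG8 genes showed smaller differences with overlapping groups. Map1lc3a, which encodes LC3A, was at 60.0, 52.6 and 49.4 CPM across WT 1 to WT 3 and 65.4, 54.7 and 67.2 CPM across PKO 1 to PKO 3, a log2 fold change of 0.21 ± 0.13 (SE; edgeR adjusted p = 0.462). Gabarapl2, which encodes GATE-16, was at 42.9, 35.8 and 36.8 CPM across WT 1 to WT 3 and 38.9, 37.4 and 50.7 CPM across PKO 1 to PKO 3. Its log2 fold change of 0.14 ± 0.16 (SE; edgeR adjusted p = 0.684) rested on PKO 3, without which it was -0.01.

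**Figure D2:**
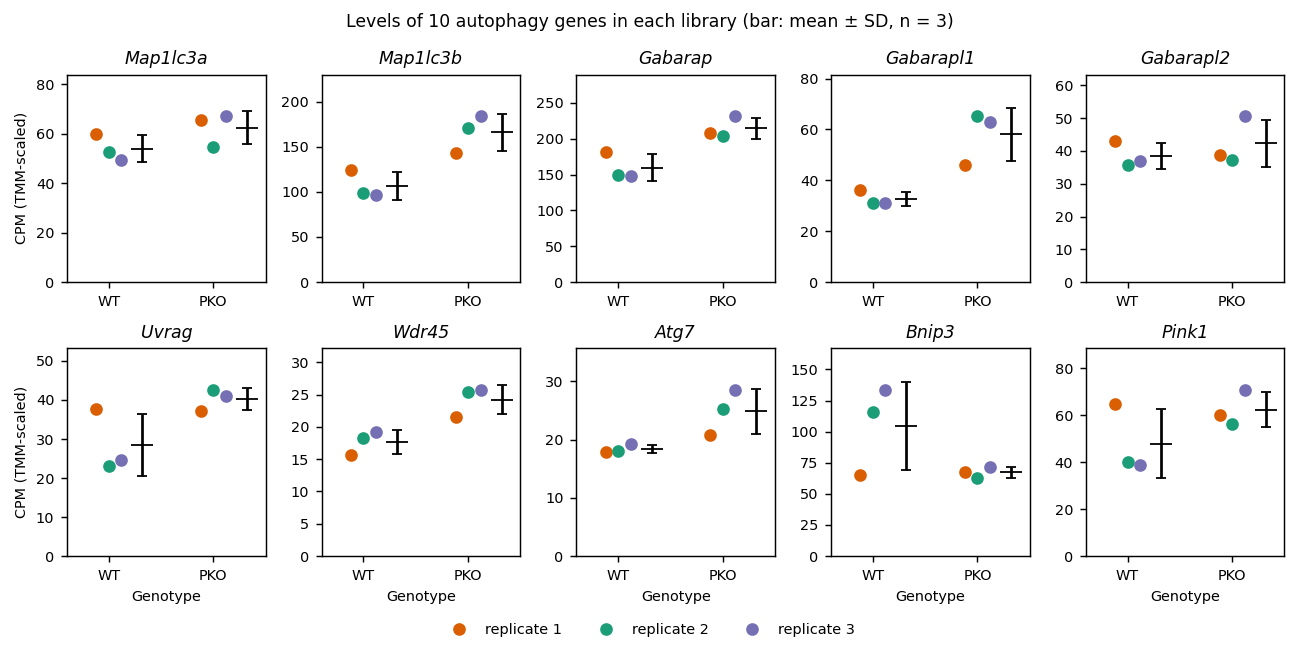
TMM-scaled CPM (vertical axes, each starting at 0) of 10 genes in each of the 6 libraries, with colours for replicate numbers and bars for mean ± SD (n = 3). Gabarapl1, Map1lc3b, Gabarap, Wdr45 and Atg7 are higher in all PKO libraries, while WT 1 of Uvrag, Bnip3 and Pink1 lies at the PKO level.

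A share within the family does not depend on how libraries are scaled. Of the summed FPKM of the 5 ATG8 genes, Gabarapl1 took 7.71%, 7.95% and 8.12% across WT 1 to WT 3 and 8.79%, 12.3% and 10.4% across PKO 1 to PKO 3. The mean share was 2.57 percentage points higher in PKO. All PKO libraries lay above all WT libraries, with PKO 1 the lowest of PKO (exact two-sided permutation test, p = 0.1, the smallest possible). Map1lc3b took 11.0% ± 0.31 in WT and 12.8% ± 1.06 in PKO (SD, n = 3; exact permutation p = 0.1). Gabarap kept its place as the main transcript, at 50.5% ± 0.34 and 50.8% ± 1.04 (exact permutation p = 0.9). The shares of Map1lc3a (20.8% ± 0.56 and 17.9% ± 1.74) and Gabarapl2 (9.82% ± 0.27 and 8.02% ± 0.73) were lower in all PKO libraries (exact permutation p = 0.1 for each). The 5 shares sum to 100% in each library, so they are not independent. The summed level itself was 229 ± 25.6 FPKM in WT and 320 ± 30.1 FPKM in PKO (exact permutation p = 0.1). The FPKM ratio of Gabarapl1 to Gabarapl2 was 0.81 ± 0.01 in WT and 1.32 ± 0.29 in PKO, and that of Map1lc3b to Map1lc3a was 0.53 ± 0.03 and 0.72 ± 0.13, each with no overlap between groups.

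**Figure D3:**
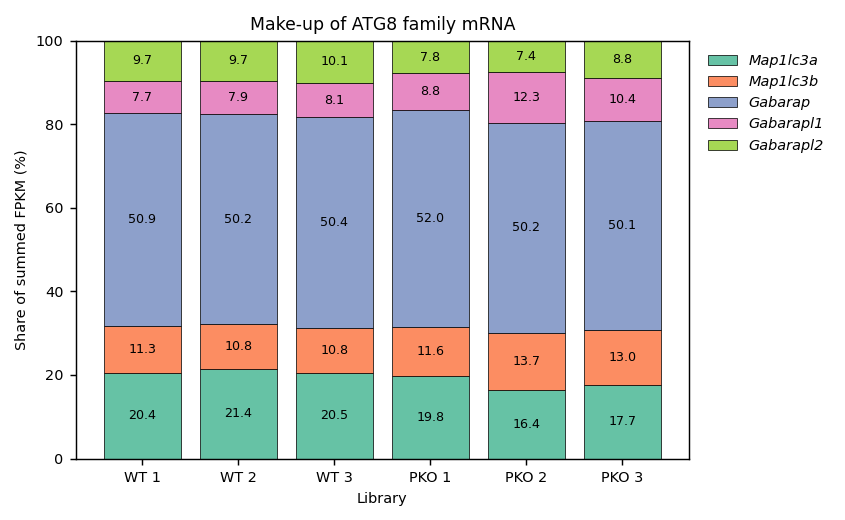
Share of the summed FPKM of the 5 ATG8 genes (vertical axis, percent) in each library, stacked by gene. Gabarap takes close to 50% throughout, and the Gabarapl1 segment runs from 7.7% to 8.1% in WT and from 8.8% to 12.3% in PKO.

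The genes of the initiation complex had the smallest median absolute log2 fold change of all roles, 0.08. Ulk1 and Ulk2 encode its kinases, Rb1cc1 the scaffold FIP200, and Atg13 and Atg101 its regulatory subunits. None of these 5 genes had an unadjusted edgeR p under 0.05, beside 10.2% of all genes higher and 6.35% lower. Their median log2 fold change was -0.03. Ulk2 had the largest difference, at 38.3, 39.2 and 41.9 CPM across WT 1 to WT 3 and 40.9, 51.6 and 42.3 CPM across PKO 1 to PKO 3. Only PKO 2 stood out, and the groups overlapped (log2 fold change 0.18 ± 0.13, SE; edgeR adjusted p = 0.523). The other 4 genes lay between -0.08 and 0.15 on the log2 scale.

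Of the 6 nucleation genes, 5 had a log2 fold change above 0, against 48.3% of all genes, with a median of 0.11. Uvrag (ENSMUSG00000035354; chr7:98886743-99141144, minus strand) encodes a Beclin 1 partner that acts in autophagosome and endosome maturation. Its level was 37.6, 23.2 and 24.7 CPM across WT 1 to WT 3 and 37.1, 42.6 and 41.1 CPM across PKO 1 to PKO 3. WT 1 lay at the level of PKO 1, well above the other WT libraries. The log2 fold change was 0.50 ± 0.20 (SE; edgeR adjusted p = 0.286) over 6 libraries, -0.02 between WT 1 and PKO 1, and 0.80 without that pair (edgeR adjusted p = 0.0155; 0.0155 to 0.924 over the 17 alternatives). Without PKO 2 and PKO 3 it was 0.39. The lipid kinase gene Pik3c3 and its partners Becn1 and Atg14, which brings the complex to the site of autophagosome formation, showed small differences with no overlap between groups. Over all genes tested, 11.8% had every PKO library above every WT library. Becn1 was at 50.7, 49.0 and 50.5 CPM across WT 1 to WT 3 and 53.7, 51.1 and 53.7 CPM across PKO 1 to PKO 3. Pik3c3 was at 20.9, 19.2 and 22.5 CPM for WT and 23.6, 23.0 and 23.0 CPM in PKO. Atg14 was at 20.0, 18.5 and 17.6 CPM for WT and 21.0, 20.2 and 20.5 CPM in PKO. Their log2 fold changes of 0.08 ± 0.10, 0.15 ± 0.13 and 0.14 ± 0.13 (SE) were about as large as their errors (edgeR adjusted p = 0.724, 0.577 and 0.626). The regulatory subunit gene Pik3r4 and the Beclin 1 regulator Ambra1 had log2 fold changes of 0.01 and -0.13 and overlapping groups.

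Among genes for membrane supply, Wdr45 (ENSMUSG00000039382; chrX:7721973-7728201, plus strand) stood apart from the others. It encodes WIPI4, a PI3P-binding propeller protein that pairs with ATG2. Its level was 15.7, 18.3 and 19.2 CPM across WT 1 to WT 3 and 21.6, 25.3 and 25.7 CPM across PKO 1 to PKO 3. All PKO libraries were higher, and the difference between PKO 1 and WT 1 (0.46 on the log2 scale) was as large as without that pair (0.45). Over 6 libraries it came to a log2 fold change of 0.45 ± 0.15 (SE; edgeR adjusted p = 0.236), and without PKO 2 and PKO 3 to 0.29. The lipid transfer genes Atg2a and Atg2b, the scramblase gene Atg9a and the PI3P effectors Wipi1 and Wipi2 had log2 fold changes between -0.31 and 0.06, all with overlapping groups. PKO 3 was the lowest library in Atg2a, Atg2b and Atg9a, at 44.0, 54.9 and 24.4 CPM, against 58.8 to 66.3, 81.9 to 91.7 and 31.0 to 42.4 CPM in WT. These 3 genes were singled out after their values were seen.

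The conjugation genes, 11 with the ATG4 proteases, had a median log2 fold change close to 0. Atg7 (ENSMUSG00000030314; chr6:114643097-114860614, plus strand), the E1-like enzyme of both conjugation systems, was the exception in size. It was at 17.8, 18.1 and 19.3 CPM across WT 1 to WT 3 and 20.8, 25.3 and 28.5 CPM across PKO 1 to PKO 3. WT libraries lay close together, PKO 1 just above them and PKO 3 highest. Its log2 fold change was 0.43 ± 0.16 (SE; edgeR adjusted p = 0.264), and 0.18 without PKO 2 and PKO 3. The genes of the proteases ATG4C and ATG4D, which process ATG8 proteins, had all PKO libraries below WT, as did 9.7% of all genes tested. Atg4c was at 23.1, 24.2 and 27.0 CPM for WT and 21.5, 23.1 and 21.9 CPM in PKO, and Atg4d at 19.4, 18.5 and 17.9 CPM for WT and 16.6, 14.7 and 17.3 CPM in PKO. The margins were narrow, at -0.16 ± 0.13 and -0.20 ± 0.14 (log2 fold change, SE; edgeR adjusted p = 0.559 and 0.507). The other 8 genes ranged from -0.23 to 0.20 with overlapping groups: the E2-like enzymes Atg3 and Atg10, the ubiquitin-like Atg12 and its acceptor Atg5, the scaffolds Atg16l1 and Atg16l2, and the proteases Atg4a and Atg4b.

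The 4 cargo receptors had a median log2 fold change of 0.11. Tax1bp1, a ubiquitin-binding receptor, had the largest difference, at 160, 143 and 156 CPM across WT 1 to WT 3 and 167, 172 and 178 CPM across PKO 1 to PKO 3. The groups were apart by a small margin (log2 fold change 0.17 ± 0.11, SE; edgeR adjusted p = 0.449). Optn, whose product also serves PINK1-dependent mitophagy, Nbr1 and Calcoco1 had log2 fold changes between -0.06 and 0.15 with overlapping groups.

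The 4 mitophagy genes did not share a direction. Bnip3 (ENSMUSG00000078566; chr7:138890836-138909519, minus strand) encodes a receptor in the outer mitochondrial membrane and is a known target of hypoxia-inducible factor. It was at 65.0, 116 and 133 CPM across WT 1 to WT 3 and at 67.8, 62.4 and 71.3 CPM across PKO 1 to PKO 3. WT 2 and WT 3 were high, while WT 1 lay among the PKO libraries. The log2 fold change was -0.64 ± 0.25 (SE; edgeR adjusted p = 0.281, DESeq2 adjusted p = 0.173) over 6 libraries. It was 0.06 between WT 1 and PKO 1, and -0.90 without that pair (edgeR adjusted p = 0.0142; 0.0142 to 0.924 over the 17 alternatives). It was -0.63 without PKO 2 and PKO 3. The summed cycling markers of the same libraries divide as Bnip3 does, high in WT 2 and WT 3 and low in WT 1 and all PKO libraries, and their part in the result was not tested.

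Its close relative Bnip3l (NIX) and the hypoxia-responsive receptor Fundc1 had log2 fold changes of 0.12 and 0.08. The FPKM ratio of Bnip3 to Bnip3l was 1.60, 2.20 and 2.73 across WT 1 to WT 3 and 1.48, 1.10 and 1.37 across PKO 1 to PKO 3. In this ratio too, WT 1 lay nearer to PKO 1 than to the other WT libraries (exact two-sided permutation test over groups, p = 0.1). Pink1 (ENSMUSG00000028756; chr4:138313409-138326307, minus strand), the kinase that marks depolarised mitochondria, is described because edgeR called it without WT 1 and PKO 1, a choice made after its values were seen. Its level was 64.7, 39.9 and 38.8 CPM across WT 1 to WT 3 and 60.1, 56.2 and 70.7 CPM across PKO 1 to PKO 3. WT 1 again lay within the PKO range. Over 6 libraries the log2 fold change was 0.38 ± 0.22 (SE; edgeR adjusted p = 0.408), -0.11 between WT 1 and PKO 1, and 0.69 without them (edgeR adjusted p = 0.0387; 0.0387 to 0.924 over the 17 alternatives). It was 0.33 without PKO 2 and PKO 3.

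**Figure D4:**
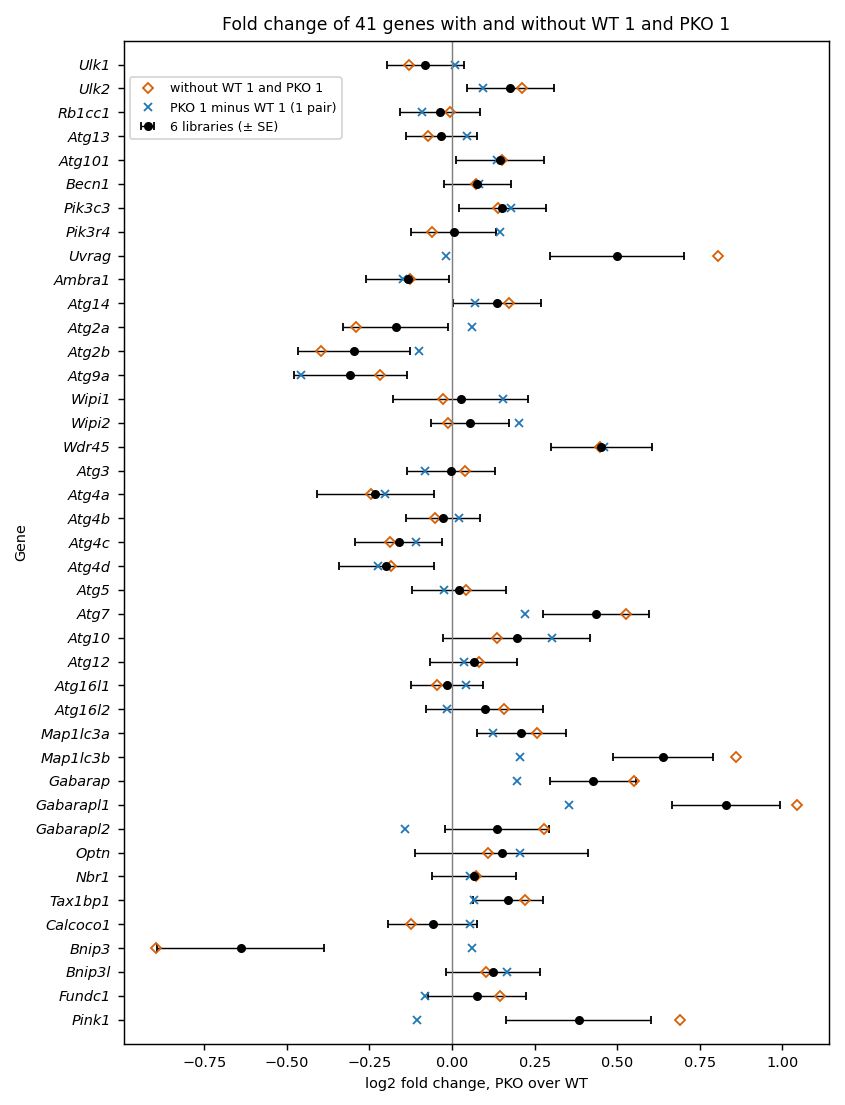
Log2 fold change of each of the 41 genes, PKO over WT (horizontal axis): edgeR over 6 libraries with its SE (black), edgeR without WT 1 and PKO 1 (orange diamonds), and the difference between PKO 1 and WT 1 alone (blue crosses). For Uvrag, Pink1 and Bnip3 the crosses lie near 0 (-0.02, -0.11 and 0.06) and the diamonds far from it (0.80, 0.69 and -0.90), while for Wdr45 all estimates lie within 0.45 to 0.46.

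Promoters were found in RefSeq for 34 of the 41 genes and searched on both strands for 4 motifs of factors known to act on autophagy genes. CACGTG, the core of the element bound by TFEB and TFE3, was in 5 of the 34 (Atg14, Atg3, Atg5, Atg7 and Bnip3), and in 7.15% of all 32851 promoters of that length. In the Bnip3 sequence above it starts 108 bases before the start site. ACGTG, the core of the hypoxia response element, lies within CACGTG and was in 13 of the 34, against 19.6% of all promoters. The Gabarap window holds it on the minus strand, also 108 bases upstream of the RefSeq start. That position is downstream of the deposited gene start and so inside the counted gene. TGACNNNGC, the core of the antioxidant response element bound by NRF2, was in 3 of the 34 (Atg13, Map1lc3b and Ulk2), against 12.4% of all, and in Map1lc3b it starts 5 bases after the start site. GTAAACA, one form of the FOXO motif and the only one searched, was in 0 of the 34, against 3.65% of all. The Gabarapl1 window held none of the 4 in the forms searched, and other forms may be present. The promoters of the 34 genes had a median GC content of 59.3%, above the 52.7% of all promoters. These matches describe letters in a window and show no binding.

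The wider pathway was read from 5 further lists with 109 genes, 108 of them in the table. In the list of other core genes and receptors, 4 of the 20 genes tested were higher at an unadjusted edgeR p under 0.05 and 2 lower, beside 10.2% and 6.35% of all genes, and the median log2 fold change was -0.03. Sqstm1, which encodes the cargo receptor p62, was at 622, 375 and 361 CPM across WT 1 to WT 3 and 661, 967 and 1002 CPM across PKO 1 to PKO 3. WT 1 and PKO 1 were close, below the other PKO libraries and above the other WT libraries. Sqstm1 rose by DESeq2 (adjusted p = 0.0162; edgeR log2 fold change 0.95 ± 0.27, SE, adjusted p = 0.190; 0.00423 to 0.924 over the 17 alternatives). Its log2 fold change was 1.42 without WT 1 and PKO 1 and 0.55 without PKO 2 and PKO 3. Vmp1, a membrane protein of autophagosome formation, and Tex264, a receptor for the endoplasmic reticulum, had log2 fold changes of 0.57 ± 0.17 and 0.48 ± 0.18 (SE; edgeR adjusted p = 0.204 and 0.276). Without WT 1 and PKO 1 edgeR called both, at 0.81 and 0.73 (adjusted p = 0.0114 and 0.0178, the lowest of the 17 alternatives, with 0.924 the highest for each). EdgeR also called Vmp1 without PKO 1 alone and Tex264 without WT 1 alone. Without PKO 2 and PKO 3 their log2 fold changes were 0.21 and 0.42.

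Genes for fusion of autophagosomes with lysosomes were split, with 2 of 16 higher and 2 lower at an unadjusted edgeR p under 0.05 (10.2% and 6.35% of all genes). A log2 fold change above 0 was found in 11 of 16, against 48.3% of all genes, with a median of 0.19. The SNARE genes Snap29 and Stx7 were at 0.50 ± 0.20 and 0.32 ± 0.12, and Vps33a, a subunit of the HOPS tether, at -0.36 ± 0.13 (log2 fold change, SE; edgeR adjusted p = 0.279, 0.269 and 0.257). Without WT 1 and PKO 1 edgeR called Snap29 (0.77, adjusted p = 0.0291) and Vps33a (-0.51, adjusted p = 0.0450), in each case the lowest adjusted p of the 17 alternatives, with highest values of 0.931 and 0.924. Without PKO 2 and PKO 3 these log2 fold changes were 0.18 and -0.17. Of 22 other mitophagy and mitochondrial dynamics genes, 0 were higher and 3 lower at an unadjusted edgeR p under 0.05 (10.2% and 6.35% of all genes). A log2 fold change above 0 was found in 6, against 48.3% of all genes, with a median of -0.17. The lower ones were Bcl2l13, a mitophagy receptor (73.2 ± 2.93 CPM in WT and 57.2 ± 3.73 in PKO), and the mitofusins Mfn1 (82.2 ± 0.60 and 66.5 ± 6.62) and Mfn2 (179 ± 8.47 and 132 ± 25.6), GTPases that fuse outer mitochondrial membranes. Their groups did not overlap. Over all genes tested, 9.7% had every PKO library below every WT library. With 6 libraries neither edgeR (adjusted p = 0.206, 0.269 and 0.253) nor DESeq2 (adjusted p = 0.136, 0.262 and 0.177) called them. EdgeR called Mfn2 lower without WT 1 and PKO 1 (log2 fold change -0.57, adjusted p = 0.0305; 0.0305 to 0.924 over the 17 alternatives) and without PKO 1 alone (-0.60, adjusted p = 0.0490). The Mfn2 difference was -0.14 without PKO 2 and PKO 3.

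Of 35 regulators that act above the ULK1 complex through mTORC1 and AMPK, 5 were higher and 2 lower at an unadjusted edgeR p under 0.05, beside 10.2% and 6.35% of all genes, with a median log2 fold change of -0.02. Ddit4, an inhibitor of mTORC1 signalling, was at 47.8, 45.8 and 48.8 CPM across WT 1 to WT 3 and 65.2, 95.2 and 85.0 CPM across PKO 1 to PKO 3. The groups were well apart, and Ddit4 rose by DESeq2 (adjusted p = 0.0037; edgeR log2 fold change 0.78 ± 0.16, SE, adjusted p = 0.179; 0.0037 to 0.924 over the 17 alternatives). Castor1 (listed as Gatsl3), the arginine sensor of the pathway, was low throughout, at 1.36, 0.79 and 1.09 CPM for WT and 2.45, 7.51 and 4.88 CPM in PKO. It too rose by DESeq2 (adjusted p = 0.00183; edgeR log2 fold change 2.18 ± 0.48, SE, adjusted p = 0.179; 0.00183 to 0.924 over the 17 alternatives). Without WT 1 and PKO 1 the log2 fold changes of Ddit4 and Castor1 were 0.93 and 2.70, and without PKO 2 and PKO 3 they were 0.46 and 1.18. Rptor, the mTORC1 subunit raptor, averaged 214 ± 11.5 CPM (WT) and 150 ± 25.9 CPM (PKO) with no overlap (edgeR adjusted p = 0.203). Beside these genes, 11.8% of all genes tested had every PKO library above every WT library, and 9.7% had every one below.

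Of 14 transcription factors known to act on autophagy genes, 2 were higher and 1 lower at an unadjusted edgeR p under 0.05, beside 10.2% and 6.35% of all genes, with a median log2 fold change of 0.20. Cebpb, a leucine zipper factor that responds to stress and inflammation, was at 22.6, 10.7 and 12.3 CPM across WT 1 to WT 3 and 28.9, 46.1 and 64.6 CPM across PKO 1 to PKO 3. WT 1 and PKO 1 lay next to each other between the remaining libraries. Cebpb rose by DESeq2 (adjusted p = 0.00135; edgeR log2 fold change 1.61 ± 0.38, SE, adjusted p = 0.185; 0.00135 to 0.924 over the 17 alternatives). Its log2 fold change was 2.27 without WT 1 and PKO 1 and 0.93 without PKO 2 and PKO 3. Nfe2l2, which encodes NRF2, was at 163 ± 6.80 and 217 ± 27.2 CPM, and Foxo4 at 93.2 ± 5.75 and 72.4 ± 12.4 CPM. Both were without overlap and without a call (edgeR adjusted p = 0.216 and 0.287). Such a lack of overlap was found in 11.8% of all genes tested with PKO above WT and in 9.7% with PKO below. Tfeb, named outside the rule as the best known regulator of the pathway, had mean levels of 8.54 (WT) and 8.97 (PKO) CPM, with overlapping groups.

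Gene length moved with level in some libraries. Across all 14025 genes tested, Spearman's rho between gene length and a library's deviation from the mean of all libraries was 0.20 in PKO 2 and -0.35 in PKO 3, and between -0.03 and 0.08 in the other libraries. Across the 41 genes, level relative to the WT mean went with length at a rho of -0.28 in PKO 1, 0.02 in PKO 2 and -0.52 in PKO 3. The WT libraries gave -0.21, 0.30 and 0.03 for WT 1 to WT 3, so the value of PKO 1 was no farther from 0 than that of WT 2. These are correlations across genes of the same libraries, which are not independent replicates. The ATG8 genes are short, apart from Map1lc3b at 4138 bases. Atg2a and Atg2b are long (6371 and 10173 bases), as are genes such as Rb1cc1 (7607 bases), while Atg9a, at 4218 bases, is close to Map1lc3b. With a smooth curve on length taken out of each library, Gabarapl1 was at 0.78, Map1lc3b at 0.67, Gabarap at 0.37, Wdr45 at 0.40 and Bnip3 at -0.70 (log2 fold change). EdgeR then called 0 of the 41, and the share called over all genes was 0%.

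**Figure D5:**
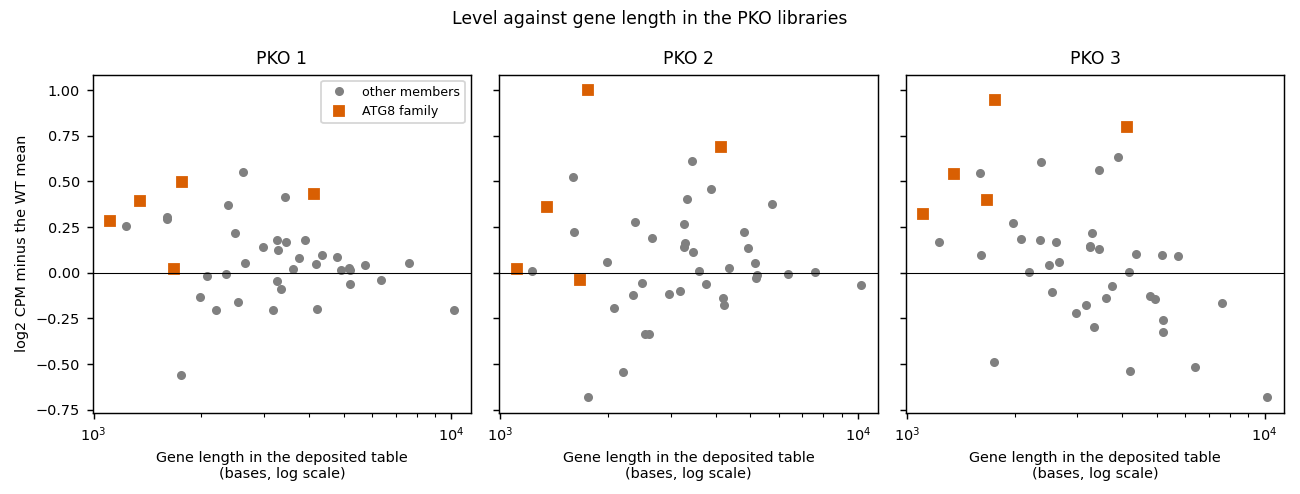
Level of each of the 41 genes in PKO 1, PKO 2 and PKO 3, as log2 CPM minus the WT mean (vertical axis), against gene length in bases (horizontal log axis), with ATG8 genes as orange squares. In PKO 3 short genes lie higher than long ones (rho -0.52), in PKO 2 they do not (rho 0.02), and Gabarapl1 and Map1lc3b are high in both.

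Some of these counts may include reads of other loci. RefSeq lists 8 pseudogenes of Map1lc3a and Map1lc3b, of which 2 are in the deposited table with a summed level of 0.33 to 1.28 CPM per library, and 6 of Gabarapl2, of which 0 are in the table. How multi-mapping reads were counted is not given in the sources used here. In the GENCODE annotation of GRCm38, exons of Map1lc3b share 58 bases with Zcchc14 on the opposite strand (98.0 CPM), those of Atg4d share 1405 bases with Kri1 and those of Atg2b 383 bases with Gskip. Uvrag and Bnip3 share 1589 and 504 bases with antisense genes. Since the strand setting of the counting is not given, the values of these genes are uncertain to that extent. On the same strand, Wdr45 shares 818 exon bases with the annotated gene Gm45208, and Atg9a shares 1832 with Gm29253. The values of Wdr45 and Atg9a are thus uncertain under any strand setting.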

How the data were processed

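Polyadenylated RNA was sequenced in 6 libraries, 3 WT and 3 PKO, grouped and numbered by their titles. Per the series text and the submitters' processing notes, paired reads of 150 bp were filtered, mapped to mouse GRCm38 (mm10) by TopHat2 and assigned to genes by HTSeq 0.6.1. The deposited table gives whole read counts, from which all tests here start. It also holds FPKM that the authors derived from the counts and a gene length, used here to compare genes and for shares. The deposited normalized signal was not used. The authors' log2 fold changes and p-values, made with DESeq2 or edgeR (the series text names both), are quoted only where the deposited table is named.

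Genes kept by filterByExpr (14025) were fitted with edgeR 4.0.16 in R 4.3.3: TMM scaling, a robust quasi-likelihood fit on genotype, and Benjamini-Hochberg adjustment over all genes tested at 0.05. The test was checked on counts simulated from these libraries. Levels are TMM-scaled CPM and log2 CPM used a prior count of 2. SE was derived from the fold change and its F statistic. Alternatives were DESeq2 1.42.0, limma-voom (limma 3.58.1), other scalings and filters, a replicate block, leaving out each library or WT 1 with PKO 1, and, added after seeing the data, leaving out PKO 2 with PKO 3 and a curve on gene length. Because WT 1 and PKO 1 were the most alike of WT and PKO libraries in these data, adjusted p-values without both are not separate support. Single values and shares were tested with exact permutation tests. Counting error was not estimated apart from the differences among libraries, and it is not minor for every gene. Pik3c3, for example, had 443, 404 and 448 counts across PKO 1 to PKO 3. Narrow gaps between groups, such as those of Becn1, Atg14 and Atg4c, may lie within counting error.

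The members and all lists were chosen with earlier results of these data known. Values in every library are given for members with non-overlapping groups, an unadjusted edgeR p under 0.05 or a DESeq2 call, for the ATG8 genes, and for the largest difference of each role. Up to 3 genes with the smallest p were named from each further list, and the 3 highest of each marker list were considered. Of adipocyte and erythroid markers, 1 gene each was in the table (Lep at most at 0.17 CPM, Alas2 at a mean of 0.34 CPM), and Schwann markers summed to at most 10.3 CPM. Gene structures and sequences came from RefSeq and the reference annotation of GRCm38.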

Additional observations from a re-analysis of the deposited data

How the results depend on the processing

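EdgeR called 0 of the 41 genes with RLE, upper-quartile or no scaling factors, and with all genes kept or only those averaging 1 CPM. It also called 0 with the length curve, as did limma-voom. The main edgeR fit and the length curve called 0% of all genes tested. For the other settings with 0 calls that share is not given here, so these counts are not shown to be particular to the 41. DESeq2 called 2 (4.73% of all genes higher and 0.933% lower). EdgeR without WT 1 and PKO 1 called 6 (10.2% and 5.63%). With each library left out in turn the count ran from 0 to 5. The 5 were without WT 1 (3.55% and 3.32%), and without PKO 1 it was 2 (4.54% and 0.538%). The median log2 fold change of the 41 was 0.07, ran from 0.04 to 0.08 with each library left out, and was 0.12 with no scaling factors beyond library size. For 32 single genes under 17 alternatives, 507 of 544 gene and setting pairs kept direction and side of the threshold, 36 passed the threshold in the same direction, and 1 reversed: Gabarapl2, whose log2 fold change of 0.14 ran from -0.014 (without PKO 3) to 0.23 with each library left out and was 0.28 without WT 1 and PKO 1. Because the main edgeR fit called 0% of all genes tested, every gene started uncalled and could not lose a call. Keeping the side of the threshold is therefore no measure of how firm a difference is. Among the 41, 17 genes with values between -0.08 and 0.15 changed sign under at least 1 alternative. The Pnpla2 level ran from 36.9% to 50.6% of WT.

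Deviations from the group means correlated at 0.10, -0.03 and 0.13 for same-numbered libraries, and at -0.21 to 0.12 for WT and PKO libraries of different number. With 3 libraries per group, these values do not settle whether same-numbered libraries were handled together, and the labels do not say. With a replicate block edgeR called 0 of the 41, with a median of 0.07.

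With 3 libraries per group the smallest exact permutation p is 0.1. Calls for single genes depended on whether WT 1 and PKO 1 were in the fit, and the cause was not tested.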
